A study of Mus musculus with 2 samples.

Results

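The 9 genes described here, *Peg3*, *Mest*, *H19*, *Dlk1*, *Meg3*, *Plagl1*, *Grb10*, *Ndn* and *Sgce*, belong to a network of imprinted growth genes. They were taken by name, all 9 were found in the count matrices, and they are 9 of the 27998 genes counted. The scRNA-seq data came from whole lungs of C57BL/6 mice aged 2 weeks kept from P0 to P14 either at 21% O2 (room air) or at 80% O2 (hyperoxia), which is used to model bronchopulmonary dysplasia. The cells of 8 mice were pooled into 1 library per group, so neither group had a replicate, no comparison could be tested, and every interval given here is an exact 95% interval that covers counting error only. Both libraries are of the same age, so maturation itself cannot be read from them.

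An imprinted gene is transcribed mainly from the allele of 1 parent. *Peg3*, *Mest*, *Dlk1*, *Plagl1*, *Ndn* and *Sgce* are known as paternally expressed genes, and *H19*, *Meg3* and, in most tissues, *Grb10* as maternally expressed ones. Many of these genes are abundant in fetal organs and decline together after birth as growth slows, and *Plagl1*, a zinc-finger transcription factor, is known to act on several of the others. In the annotation (GENCODE M21, build GRCm38) 7 of the genes are protein coding and 2, *H19* and *Meg3*, are long noncoding RNAs. *Dlk1* (chromosome 12, 109452823 to 109463336) and *Meg3* (chromosome 12, 109541001 to 109571726) lie on the same strand with their starts 88178 bases apart and are a classic pair of oppositely imprinted neighbours. *H19* lies on chromosome 7 from 142575529 to 142578143, and its start is 88673 bases from that of *Igf2*. The start of *Sgce* lies 99 bases from that of the imprinted gene *Peg10*, and that of *Peg3* 147 bases from that of *Usp29*.

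Imprints are kept as DNA methylation of CG dinucleotides, and whether the windows shown here hold such sites was not examined. The 250 bases before the start of transcription are shown for the neighbours *Dlk1* and *Meg3* and for *Peg3* and *Mest*, on which the capillary results turn, with every CG in capitals (RefSeq, GRCm38.p6, 5′ to 3′). For *Mest* and *Meg3*, which have 3 and 2 windows in the table, a window with the most CG dinucleotides of that gene is given.
Dlk1 (chr12:109452573-109452822, plus strand): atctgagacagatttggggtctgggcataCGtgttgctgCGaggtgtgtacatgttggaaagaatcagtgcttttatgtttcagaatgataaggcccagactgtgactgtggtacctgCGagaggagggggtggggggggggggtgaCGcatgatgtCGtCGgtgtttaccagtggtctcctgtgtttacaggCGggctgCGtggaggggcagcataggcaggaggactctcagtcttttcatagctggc
Meg3 (chr12:109540746-109540995, plus strand): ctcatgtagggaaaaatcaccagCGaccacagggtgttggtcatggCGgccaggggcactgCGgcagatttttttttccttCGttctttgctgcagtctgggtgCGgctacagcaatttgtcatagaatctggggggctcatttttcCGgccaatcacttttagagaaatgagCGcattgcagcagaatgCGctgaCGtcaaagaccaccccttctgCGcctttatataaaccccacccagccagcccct
Peg3 (chr7:6730420-6730669, minus strand): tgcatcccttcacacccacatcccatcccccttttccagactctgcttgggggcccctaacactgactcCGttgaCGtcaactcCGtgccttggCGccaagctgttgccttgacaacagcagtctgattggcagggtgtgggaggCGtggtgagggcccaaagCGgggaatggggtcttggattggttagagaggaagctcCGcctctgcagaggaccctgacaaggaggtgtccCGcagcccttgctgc
Mest (chr6:30737800-30738049, plus strand): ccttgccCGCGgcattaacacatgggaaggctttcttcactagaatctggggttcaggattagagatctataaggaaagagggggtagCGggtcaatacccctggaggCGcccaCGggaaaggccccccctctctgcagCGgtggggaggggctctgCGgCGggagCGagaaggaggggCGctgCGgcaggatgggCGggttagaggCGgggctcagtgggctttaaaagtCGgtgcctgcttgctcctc
Of these the *Mest* window held 14 CG dinucleotides, that of *Meg3* 10, and those of *Dlk1* and *Peg3* 8 each, against a median of 6 over the 32851 windows of the table. The table had windows for 7 of the 9 genes. The palindrome GGGGCCCC, searched on both strands as the core of the GC-rich sequence that Plagl1 protein is known to bind, was found in the *Peg3* window and in none of the other 10 windows of these genes, and 0.889% of all windows held it.

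The room air library had 4234 barcodes and 39593888 UMIs, and the hyperoxia library had 13223 barcodes and 111934936 UMIs. After filtering, 3680 and 10472 cells were kept, with medians of 8067 and 7232.5 UMIs. The libraries shared 17 barcodes. Cells were clustered without the 9 genes and without 33 other imprinted genes, and clusters were named from marker genes as stromal-like, endothelial-like, epithelial-like, myeloid-like or lymphocyte-like and then by cell type. In stromal-like cells *Xist*, which is expressed in female cells, was at 178 CPM under room air against 436 CPM under hyperoxia. The Y-linked genes *Ddx3y* (98.7 and 128 CPM), *Eif2s3y* (33.6 and 38.9), *Kdm5d* (19.1 and 17.3) and *Uty* (20.9 and 19.7) were within 1.5-fold in stromal-like cells, but not in every cell type. The part of the pools' sex makeup in the values below was not tested.

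The genes were transcripts of structural cells. Stromal-like cells held most of the UMIs of *Peg3*, *Meg3*, *Plagl1*, *Grb10*, *Ndn* and *Sgce* in both libraries, from 55.2% of the *Plagl1* UMIs in hyperoxia to 78.9% of the *Ndn* UMIs in room air. Endothelial-like cells (ECs) held 69.0% of the *Mest* UMIs in room air and 79.8% in hyperoxia. *H19* and *Dlk1* were distributed differently in the libraries. ECs held 54.1% of the *H19* UMIs in room air and 2.81% in hyperoxia, and epithelial-like cells held 47.6% of the *Dlk1* UMIs in room air and 6.16% in hyperoxia. In the 7 immune cell types compared, no gene exceeded 22.3 CPM, the level of *Peg3* in nonclassical monocyte-like cells in hyperoxia. B-like cells, used as the background of free RNA, had between 0.5 CPM (*H19*, both libraries) and 7.5 CPM (*Peg3*, hyperoxia).

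**Figure D1:**
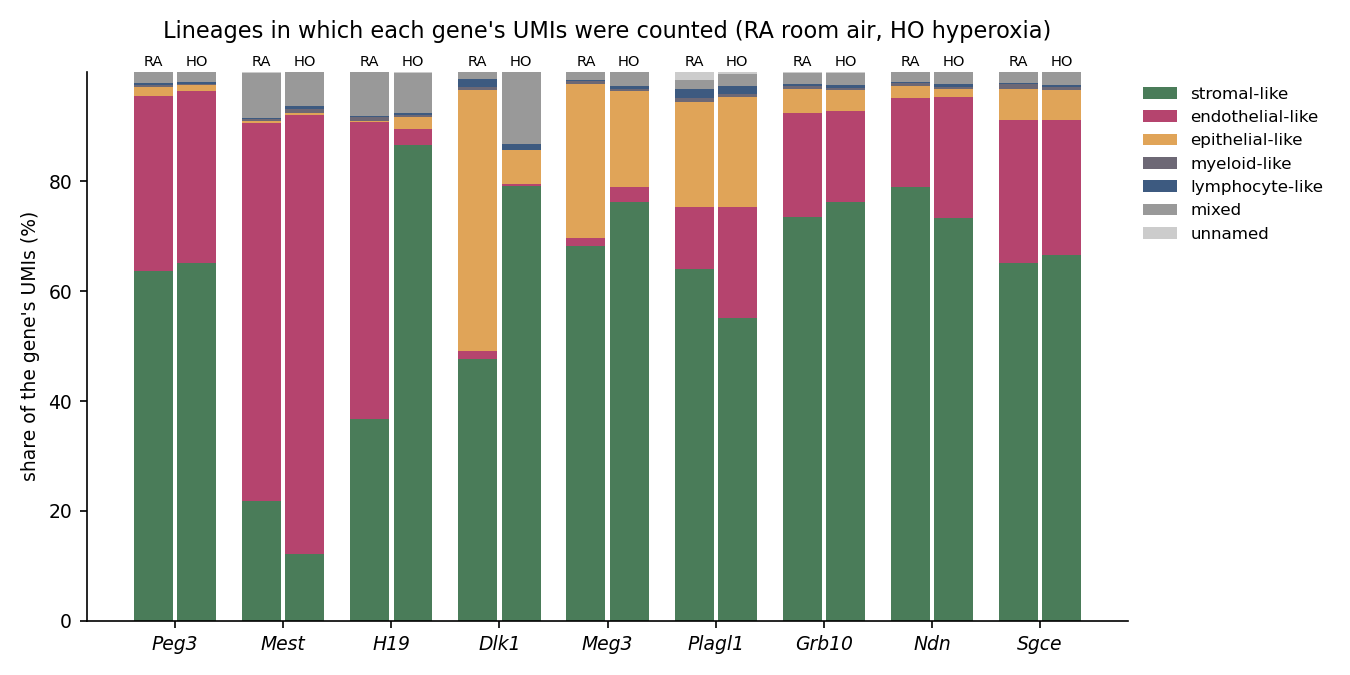
Share of each gene's UMIs (%, stacked bars) by lineage in room air (RA) and hyperoxia (HO), over all cells kept; mixed clusters held leading genes of another lineage. The EC part of the *H19* bar is 54.1% in room air and 2.81% in hyperoxia, and the epithelial part of the *Dlk1* bar is 47.6% and 6.16%.

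Each gene had its own order of cell types. *Peg3*, a zinc-finger protein gene, was highest in Tcf21 fibroblast-like cells (530 CPM in room air, 673 in hyperoxia) among types with at least 50 cells in both libraries. General capillary (gCap)-like ECs came second, and in hyperoxia the intervals of these neighbours overlapped. *Mest*, which encodes a hydrolase-like protein, was highest in aerocyte (aCap)-like ECs and then in pericyte-like cells, whose interval overlapped that of gCap-like cells in hyperoxia. *Grb10*, an adaptor that restrains insulin and IGF receptor signalling, was highest in myofibroblast-like cells (355 and 383 CPM). *Ndn*, which encodes the growth suppressor necdin, was highest in pericyte-like cells (289 and 285 CPM). *Sgce*, the gene of epsilon-sarcoglycan, was highest in pericyte-like cells too (161 and 97.8 CPM), and in hyperoxia its interval there overlapped that of Tcf21 fibroblast-like cells. *Plagl1* was highest in alveolar type 1 (AT1)-like cells (108 and 93.0 CPM). *Meg3* was at 498, 488 and 464 CPM in alveolar type 2 (AT2)-like, pericyte-like and smooth muscle-like cells of room air, with overlapping intervals between neighbours in this order.

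Adventitial fibroblast-like cells, with 24 cells in room air and 140 in hyperoxia, were too few for a comparison, but their levels were high. *Meg3* was at 1841 CPM (1718 to 1970) under room air against 1313 CPM (1261 to 1367) under hyperoxia. *Dlk1*, which encodes a transmembrane ligand related to those of Notch, was at 172 CPM (136 to 215) and 83.4 CPM (70.6 to 97.8). *Dlk1* was nearly absent from Tcf21 fibroblast-like cells (0 and 1 UMI, where 3 UMIs would be 0.987 and 0.237 CPM).

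**Figure D2:**
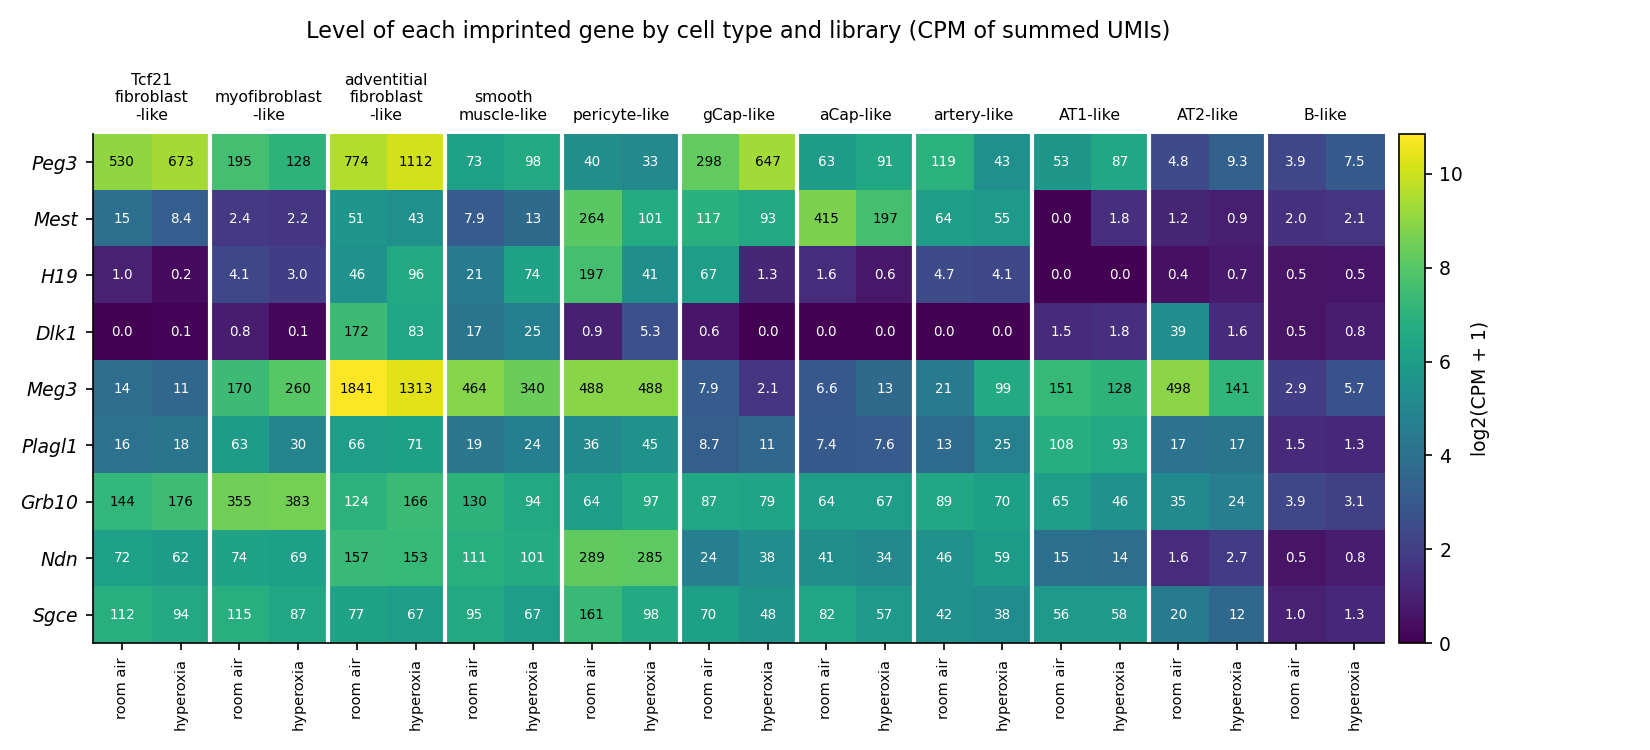
CPM of summed UMIs of the 9 genes (rows) in 10 structural cell types and in B-like cells, each in room air and hyperoxia; colour is log2(CPM + 1) and the printed number is the CPM. *Peg3* in gCap-like cells is 298 and 647 CPM and *H19* there is 66.5 and 1.3 CPM.

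Across the 9 genes and the 9 structural cell types with at least 50 cells in each library, 59 of 81 pairs of gene and type had a mean of at least 10 CPM. Of these 12 were lower and 9 higher in hyperoxia by 1.5-fold or more, and 38 were within 1.5-fold. Over all genes 10.5% of such pairs were lower and 9.42% higher. The genes did not move as a block. *Sgce* was lower in 8 of the 9 types, by 1.5-fold or more in 2 of them, and its log2 ratio (hyperoxia over room air) ran from -0.81 in AT2-like to 0.05 in AT1-like cells. *Mest* was lower in 5 of the 6 types in which it was measured, by 1.5-fold or more in 3 of them and with its interval clear of 0 in 4. *Peg3* ran from -1.47 in artery-like to 1.12 in gCap-like cells. *Grb10* stayed between -0.53 and 0.59 over 9 types and *Ndn* between -0.28 and 0.69 over 8. *Plagl1* had a ratio above 0 in 5 types, in none of them with its interval clear of 0, and below 0 in 2, with its interval clear of 0 in 1 (myofibroblast-like cells).

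**Figure D3:**
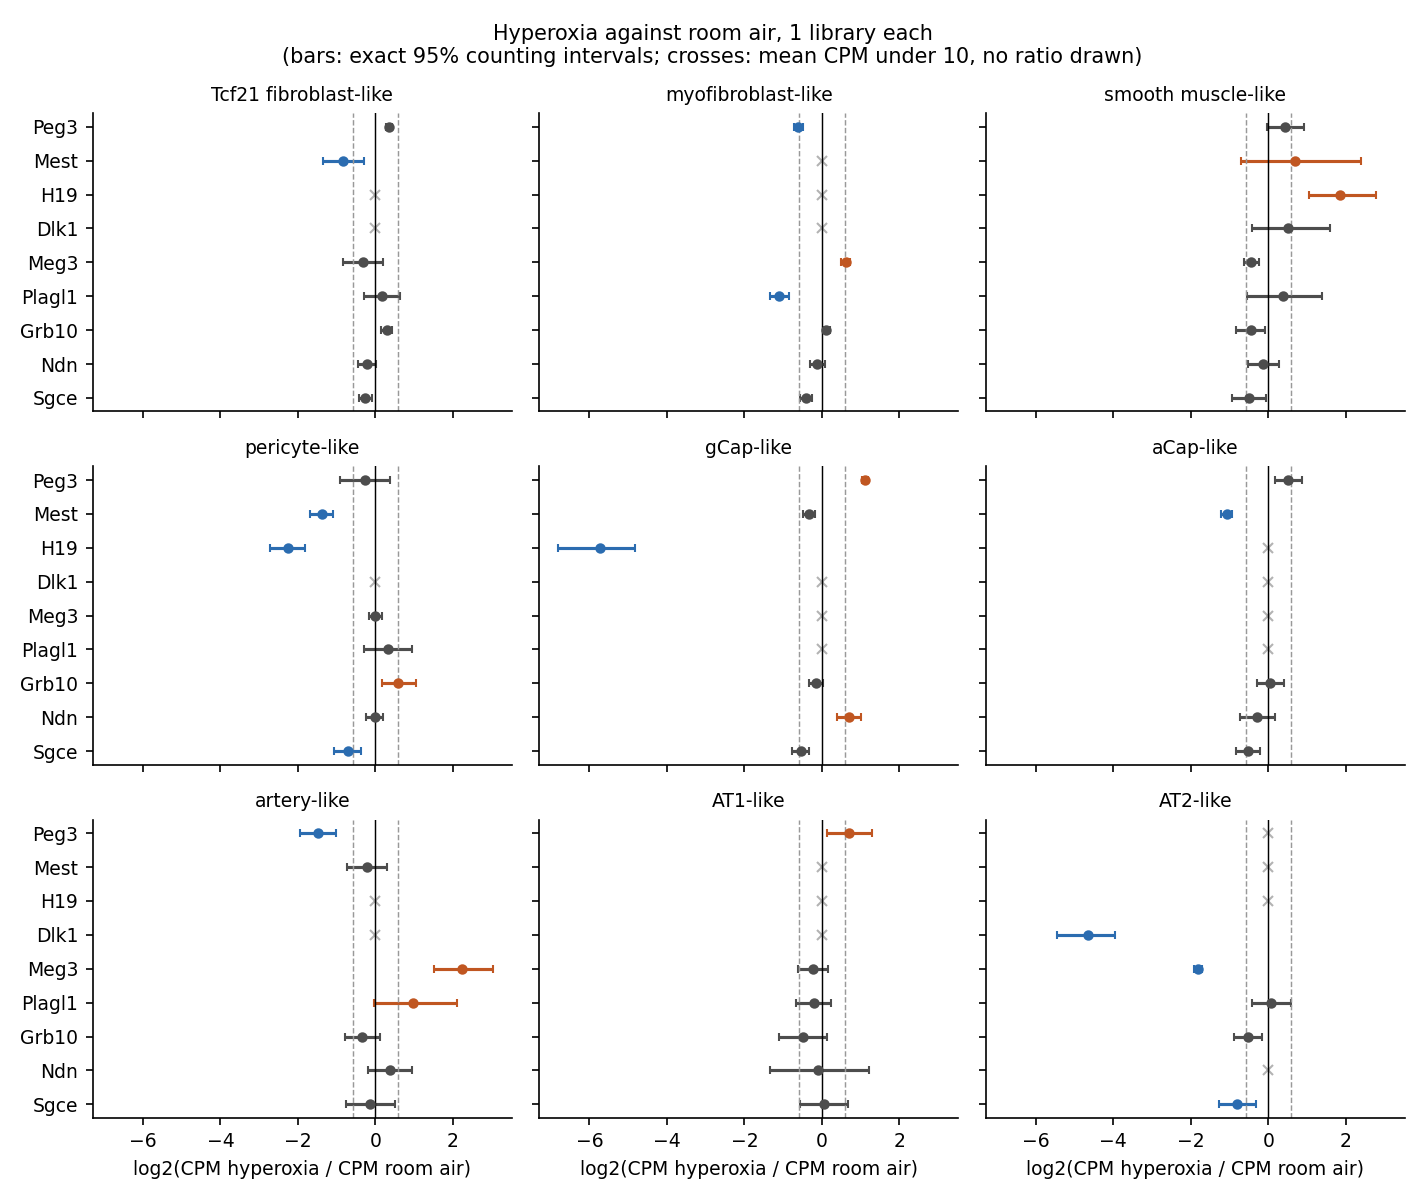
Log2 ratio of CPM, hyperoxia over room air, for each gene in 9 cell types (points) with exact 95% counting intervals (bars); dashed lines mark 1.5-fold, blue points are lower and orange points higher by at least that, and grey crosses are genes with a mean under 10 CPM. *H19* in gCap-like cells (-5.72) and *Dlk1* in AT2-like cells (-4.66) lie farthest to the left, and *Peg3* is on opposite sides in gCap-like (1.12) and artery-like cells (-1.47).

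gCap-like cells carried opposite shifts of *Peg3* and *H19*. *Peg3* was at 298 CPM (284 to 314) in 617 cells of room air and at 647 CPM (629 to 665) in 884 cells of hyperoxia, 2.17-fold higher. The difference lay over many cells. With every cell thinned to 2000 UMIs, 34.2% of the cells in room air and 48.9% in hyperoxia had a *Peg3* UMI, against 0.575% and 1.66% of B-like cells, the highest share of any of the 9 genes in B-like cells (median depths before thinning 7825 and 8848.5 UMIs in gCap-like and 4592 and 2974 in B-like cells). Without thinning the shares were 62.7% and 72.7%. The gCap-like cells came mostly from different clusters, 1 with 560 of the room air cells and 1 with 758 of the hyperoxia cells. Another cluster, led by *Top2a* and *Mki67*, held cells of both, and there *Peg3* was at 302 CPM in 46 cells of room air and 710 CPM in 102 cells of hyperoxia. *Peg3* was among the 10 leading genes of the hyperoxia cluster and *H19* among those of the room air cluster, and neither gene entered the clustering. Each of these 2 clusters held nearly only cells of 1 library, so its leading genes restate the difference between the libraries.

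*H19*, a noncoding RNA, had 352 UMIs in the gCap-like cells of room air and 10 in those of hyperoxia, 66.5 CPM (59.8 to 73.9) against 1.3 CPM (0.60 to 2.32). The log2 ratio was -5.72 (-6.80 to -4.83) and ran from -7.07 to -4.08 over 14 alternative settings, and the level in hyperoxia was near the 0.5 CPM of B-like cells. Few cells carried it. In room air 41 of 617 cells (6.65%, 4.81 to 8.91) had an *H19* UMI, with up to 52 UMIs in a cell, and 5 cells held 49.4% of the UMIs. In hyperoxia 7 of 884 cells (0.792%) had one, with at most 4 UMIs. Without the 5 highest cells of each library the levels were 34.0 and 0.25 CPM. Whether these cells came from all 8 mice of the pool or from few of them cannot be told from pooled cells. The gCap-like cells of room air also had more UMIs of the 8 stromal markers (428 CPM against 193 in hyperoxia), none of which was at 0. Among cells without a UMI of 6 stromal genes the log2 ratio of *H19* was -6.25. Pericyte-like cells of room air had *H19* at 197 CPM, and whether their RNA was part of the gCap-like level was not tested. Of the 6 measured members in gCap-like cells, 1 (*H19*) was lower and 2 (*Peg3* and *Ndn*, 23.8 and 38.4 CPM) were higher by 1.5-fold, where 11% of all genes were lower and 6.21% higher.

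aCap-like cells, the second kind of lung capillary ECs, differed in *Mest*. It was at 415 CPM (380 to 453) in 117 cells of room air and 197 CPM (188 to 207) in 905 cells of hyperoxia, 2.11-fold lower. At 2000 UMIs per cell 52.2% of the cells in room air and 25.2% in hyperoxia had a *Mest* UMI. Most room air cells (86.3%) lay in 1 cluster, where *Mest* was at 435 CPM. The hyperoxia cells lay in a cluster of 648 cells with 162 CPM and a cluster of 250 cells with 272 CPM that had no cell of room air. *Mest* was the 1 measured member of 5 past 1.5-fold, where 9.28% of all genes were lower and 8.56% higher. *Sgce* was at 82.4 and 57.0 CPM and *Peg3* at 63.5 and 90.8 CPM.

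**Figure D4:**
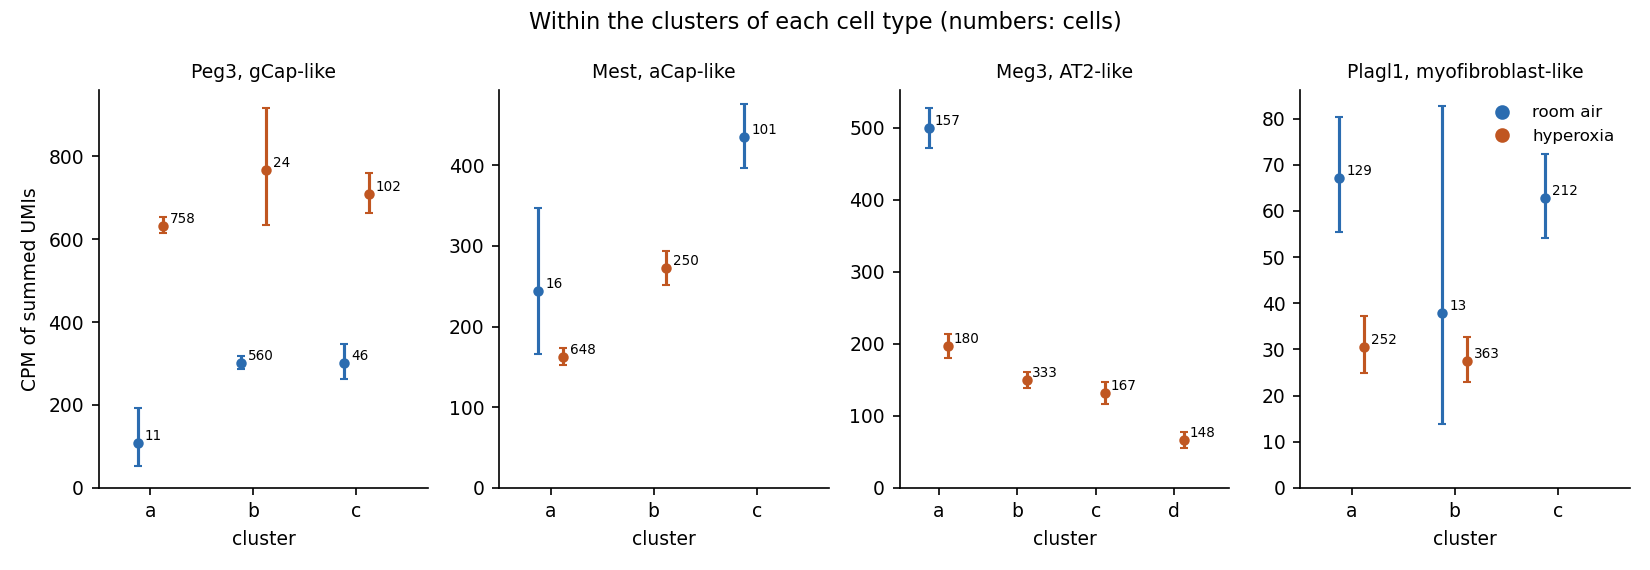
CPM of summed UMIs (points, with exact 95% Poisson intervals) of 4 genes in the clusters that make up their cell type, by library; lettered clusters are in order of size, numbers are cells, and values from fewer than 10 cells are left out. *Meg3* was measured in a cluster shared by both libraries at 500 CPM in room air and 196 in hyperoxia, while clusters with a single point hold nearly only cells of 1 library.

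In artery-like ECs the direction of *Peg3* was the reverse of that in gCap-like cells. *Peg3* was at 119 CPM (97.4 to 145) in 93 cells of room air and 43.1 CPM (33.1 to 55.1) in 149 cells of hyperoxia, a log2 ratio of -1.47. Cells of both libraries shared 1 cluster. *Meg3* was at 21.1 CPM (18 UMIs) and 99.1 CPM (145 UMIs). In hyperoxia 5 cells held 75.2% of the *Meg3* UMIs, and without the 5 highest cells of each library 0 UMIs were left in room air and 36 in hyperoxia. The log2 ratio of 2.23 was 0.11 when the number of doublets removed was doubled. The 8 stromal markers summed to 1173 CPM under room air and 3414 CPM under hyperoxia in these cells, none at 0, and their part in the *Meg3* level was not tested. Of the 7 measured members 1 was lower and 2 (*Meg3* and *Plagl1*, 12.9 and 25.3 CPM) were higher by 1.5-fold, where 15.1% of all genes were lower and 14% higher.

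AT2-like cells, which make surfactant, differed in the neighbours *Dlk1* and *Meg3*. *Meg3*, a noncoding RNA, was at 498 CPM (471 to 526) in 163 cells of room air and 141 CPM (135 to 148) in 828 cells of hyperoxia, 3.53-fold lower. At 2000 UMIs per cell 49.4% of the cells in room air and 17.2% in hyperoxia had a *Meg3* UMI. In the cluster that held 157 of the room air and 180 of the hyperoxia cells, *Meg3* was at 500 and 196 CPM. In the other clusters of AT2-like cells, nearly all of hyperoxia, it was between 65.9 and 149 CPM. *Dlk1* had 99 UMIs in 16 of the 163 cells of room air (39.2 CPM, 31.9 to 47.8) and 19 UMIs in 10 of the 828 cells of hyperoxia (1.6 CPM). Of the room air UMIs 5 cells held 76.8%. All 16 *Dlk1*-positive cells of room air had a *Meg3* UMI, as had 78.2% of the cells without *Dlk1*. In the shared cluster *Dlk1* was at 39.7 and 4.62 CPM. Stromal markers were low in AT2-like cells, 99.9 and 128 CPM in sum with none at 0. Among cells without a UMI of 6 stromal genes the log2 ratio of *Meg3* was -2.36, against -1.82 over all AT2-like cells. *Dlk1*, *Meg3* and *Sgce* (20.2 and 11.5 CPM) were the 3 of 5 measured members lower by 1.5-fold and none was higher, where 7.31% of all genes were lower and 6.23% higher.

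In AT1-like cells, the flat cells of gas exchange, *Meg3* was at 151 CPM in 65 cells of room air and 128 CPM in 132 cells of hyperoxia (log2 ratio -0.24, -0.62 to 0.15). *Peg3* was at 53.3 CPM and 86.6 CPM there (log2 ratio 0.70, 0.13 to 1.30), the 1 of 6 measured members higher by 1.5-fold, and none was lower, where 12.4% of all genes were higher and 12.5% lower. In AT1-like cells the 8 stromal markers summed to 1419 CPM under room air and 2012 CPM under hyperoxia, none at 0. The 8 epithelial markers summed to 45316 and 14668 CPM. A cluster led by *S100a9*, with a median depth of 0.171 of the library median, held 20 and 41 of the cells. The part of any of this in the *Peg3* level was not tested. Over all epithelial-like cells 3 of 6 measured members (*Dlk1*, *Meg3* and *Sgce*) were lower by 1.5-fold, with 10.4% of all genes lower and 6.71% higher. In ECs as a whole 1 of 8 (*H19*) was lower and 1 (*Meg3*, 10.1 and 15.2 CPM, 1.503-fold) higher, with 9.24% of all genes lower and 6.68% higher. Of the 292 *Meg3* UMIs of ECs in hyperoxia 145 were in artery-like cells, where 36 were left without the 5 highest cells. With means under 10 CPM, *Meg3* was at 7.94 and 2.14 CPM in gCap-like cells and at 6.59 and 12.6 CPM in aCap-like cells.

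**Figure D5:**
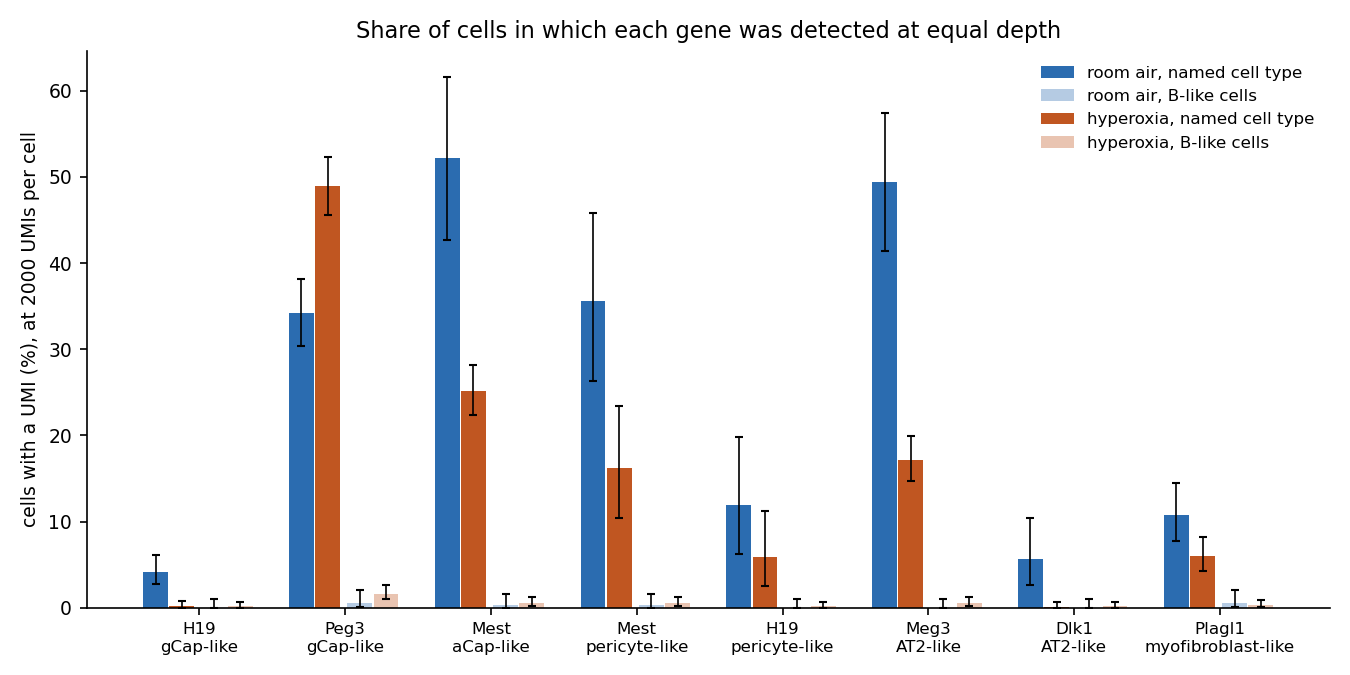
Share of cells with a UMI (%, bars with exact 95% intervals) after thinning each cell to 2000 UMIs, for 8 pairs of gene and cell type in room air and hyperoxia, with B-like cells beside them in pale bars. *Peg3* in gCap-like cells is the 1 pair that is higher in hyperoxia (34.2% and 48.9%), and the B-like cells stay under 2%.

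Pericyte-like cells, the mural cells of capillaries, had lower *Mest* and *H19* in hyperoxia. *Mest* was at 264 CPM (234 to 297) in 104 cells of room air and 100.8 CPM (84.5 to 119) in 136 cells of hyperoxia. At 2000 UMIs per cell 35.6% and 16.2% of the cells had a *Mest* UMI. *H19* was at 197 CPM (171 to 226) and 41.4 CPM (31.2 to 53.9). It was detected in 18 cells of room air and 17 of hyperoxia, and 5 cells held 76.4% and 65.5% of the UMIs. The shares of positive cells, 17.3% (10.6 to 26.0) and 12.5% (7.45 to 19.3), had overlapping intervals. The log2 ratio of *H19* was -2.25 here and ran from -2.42 to -0.35 over the 13 alternative settings. *Meg3* was at 488.0 CPM (446.7 to 532.0) under room air and 488.3 CPM (451.5 to 527.4) under hyperoxia, and *Ndn* at 289 and 285 CPM. *Sgce* was lower (161 and 97.8 CPM) and *Grb10* higher (64.4 and 97.1 CPM) by at least 1.5-fold. Most cells lay in a different cluster in each library, 99 of those in room air and 132 of those in hyperoxia. In all 3 of 8 measured members were lower and 1 higher by 1.5-fold, where 12.9% of all genes were lower and 10.8% higher.

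In myofibroblast-like cells *Plagl1* was at 63.5 CPM (56.7 to 70.9) in 354 cells of room air and 29.7 CPM (26.0 to 33.7) in 620 cells of hyperoxia, 2.14-fold lower. At 2000 UMIs per cell it was detected in 10.8% (7.73 to 14.5) and 6.01% (4.26 to 8.18) of the cells. In the cluster that both libraries shared (129 and 252 cells, led by *Stc1* and *Htra1*) *Plagl1* was at 67.1 and 30.6 CPM and *Meg3* at 59.1 and 178 CPM. *Peg3* was at 67.1 and 62.7 CPM there, whereas over all myofibroblast-like cells it was at 195 and 128 CPM. *Grb10* was at 355 and 383 CPM. Of 6 measured members 2 (*Peg3* and *Plagl1*) were lower and 1 (*Meg3*, 170 and 260 CPM) higher by 1.5-fold, where 6.05% of all genes were lower and 5.56% higher.

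Tcf21 fibroblast-like cells, named after a transcription factor of alveolar fibroblasts, had *Peg3* at 530 and 673 CPM and *Grb10* at 144 and 176 CPM. *Mest* (14.8 and 8.4 CPM) was the 1 of 7 measured members lower by 1.5-fold, where 7.27% of all genes were lower and 8.2% higher. These cells too lay in separate clusters, with 173 of 182 cells of room air in a cluster that held 4 cells of hyperoxia. In smooth muscle-like cells *H19* was at 20.6 CPM (10.95 to 35.2, 13 UMIs) in 51 cells of room air and 74.3 CPM (64.0 to 85.7, 188 UMIs) in 223 cells of hyperoxia. In hyperoxia 5 cells held 76.6% of these UMIs. The 2 clusters of these cells differed in direction. In the larger one *H19* was at 30.6 CPM (16.3 to 52.4) in 33 cells of room air and 7.33 CPM (4.01 to 12.3) in 162 cells of hyperoxia. In the other it had 0 UMIs in 18 cells of room air, where 3 UMIs would be 14.5 CPM, and was at 280 CPM (240 to 325) in 61 cells of hyperoxia. The log2 ratio of 1.85 over all smooth muscle-like cells turned to -3.74 when each library was clustered alone. *Mest* (5 and 32 UMIs) was also higher, and *Meg3* was at 464 and 340 CPM. So 2 of 9 members were higher and none lower by 1.5-fold, where 12.6% of all genes were lower and 12.6% higher.

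Over all stromal-like cells (800 and 2423) *Mest* was at 34.2 and 13.8 CPM (log2 ratio -1.31, -1.51 to -1.10) and *Plagl1* at 47.3 and 29.8 CPM. These were the 2 of 8 measured members lower by 1.5-fold and none was higher, where 5.19% of all genes were lower and 5.33% higher. The median log2 ratio of the 8 members was -0.18, against 0.003 over the 8780 genes with at least 10 CPM. *Peg3* was higher at 321 and 456 CPM (log2 ratio 0.51).

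Related genes were read in the same stromal-like cells. Of 19 measured among 33 other imprinted genes, 2 were higher (*Igf2*, the fetal growth factor, 14.4 and 27.1 CPM, and *Igf2r*, its scavenging receptor, 92.4 and 167 CPM) and 2 lower (*Slc38a4*, an amino acid transporter, and *Ppp1r9a*, a cytoskeletal scaffold) by 1.5-fold. Of 7 measured fetal growth genes 2 were lower, *Sox11* (59.6 and 21.6 CPM) and *Mdk*, a heparin-binding growth factor (970.3 and 638 CPM), and none higher. *Ptn* was at 26.8 and 39.0 CPM and *Sox4* at 528 and 394 CPM. Of 4 measured cell cycle genes *Mki67* was lower (14.5 and 5.88 CPM), and *Mcm6*, *Pcna* and *Tyms* had log2 ratios of -0.50, -0.26 and 0.17. In gCap-like cells 9 of 13 measured cell cycle genes were lower and 1 higher by 1.5-fold, with a median log2 ratio of -2.50, against -0.019 over all genes. In AT2-like cells 6 of 7 were lower. Of all genes 11% were lower and 6.21% higher in gCap-like cells, and 7.31% lower and 6.23% higher in AT2-like cells. Genes of the response to tissue dissociation, led by *Zfp36*, *Jun*, *Atf3* and *Btg2*, had 6 of 12 higher in stromal-like cells of hyperoxia, and 9 of 12 lower in epithelial-like cells. Of all genes 5.33% were higher in the former and 10.4% lower in the latter. By type, 12 were higher in Tcf21 fibroblast-like, 9 in pericyte-like, 5 in myofibroblast-like and 1 in smooth muscle-like cells, and none was lower. Of all genes 8.2%, 10.8%, 5.56% and 12.6% were higher in these types. In AT2-like cells 1 of the 12 was lower, and in AT1-like cells 2 were lower and 5 higher, where 12.5% of all genes were lower and 12.4% higher. Club-like cells held 1848669 of the 5047910 epithelial UMIs in room air and 137654 of 13475853 in hyperoxia, and the part of this makeup in counts over all epithelial-like cells was not tested.

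Detection of the members in single cells followed the lineages. At 2000 UMIs per cell a stromal-like cell had a mean of 1.53 members in room air and 1.45 in hyperoxia, an EC 0.916 and 0.841, an epithelial-like cell 0.668 and 0.372, and a lymphocyte-like cell 0.030 and 0.042. Across 16 cell types in 2 libraries (32 points, which share depth and makeup within a library), *Sgce* and *Grb10* had the highest correlation of log2(CPM + 10) among pairs of members (Pearson's r = 0.94), and *Dlk1* and *Mest* the lowest (r = -0.09). The non-member genes most like the mean of the members were *Serpinh1* (r = 0.97), *Fermt2*, *Maged2*, *Mprip* and *Ift43* (r = 0.96). The 7 immune types gave 14 of the points, with *Grb10* at no more than 8.28 CPM and *Sgce* at no more than 9.27 CPM. These correlations therefore also cover the contrast of structural with immune cells.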

How the data were processed

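Single-cell RNA-seq was read from 2 whole-lung libraries of pooled 2-week-old mice. The authors deposited raw UMI counts per gene and barcode, made with Cell Ranger on mm10. The submitters' processing notes name version 2.1.1 and the protocol 6.1.1, the labels name kit version 2 and the study's methods a later one, and the effect on the counts is not known here. Barcodes with under 500 genes or over 20% mitochondrial UMIs were left out, as were the cells most like simulated doublets (0.8% per 1000 barcodes). Clusters came from 2000 variable genes, 30 components and 20 neighbours (leidenalg 0.10.2, resolution 1), without the 9 genes, 33 other imprinted genes, sex-linked and mitochondrial genes. A cluster was named from marker lists, and the naming rule was revised after the clusters were seen by 3 added classes, which only remove names. Sums of counts per cell type were scaled to CPM with exact Poisson intervals, shares have exact Clopper-Pearson intervals, and ratios have exact conditional intervals, all at 95%. Depth differed between the libraries, so shares were also taken with each cell thinned to 2000 UMIs. A gene was measured in a type at a mean of at least 10 CPM over both libraries, and types with at least 50 cells in each were compared. Since a group is 1 library, nothing was tested, and genes past 1.5-fold were counted beside all genes. From each other list the up to 4 measured genes with the highest log2 ratio in either direction in stromal-like cells were named, and genes named beyond this were chosen after their values were seen. The members, lists and markers were chosen with earlier results of these data known. Alternatives were other doublet numbers, filters, resolutions, scalings (edgeR 4.0.16 TMM factors, median-of-ratios), thinning depths, folds and CPM minimums. Fold calls and intervals were checked on simulated Poisson sums with known changes. Those sums did not model UMIs clumped in few cells, so they cannot show how the intervals cover such genes. Python 3.11.15, scipy 1.17.1 and scikit-learn 1.9.0 were used.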

Additional observations from a re-analysis of the deposited data

Results flagged for a closer look

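Every gene had point ratios of hyperoxia over room air on both sides of 0 among the types in which it was measured. For *Mest*, *Dlk1*, *Plagl1* and *Sgce* no ratio above 0 had its interval clear of 0, and for *Ndn* no ratio below 0 had. For 3 genes the measured types with the highest and the lowest ratio, on opposite sides of 0, are described here. Each gap is therefore the largest of its gene. None of these contrasts was tested, since each group is 1 library. The log2 ratio of *Peg3* was 2.59 higher in gCap-like than in artery-like cells (1.12 and -1.47). That of *H19* was 7.58 higher in smooth muscle-like than in gCap-like cells (1.85 and -5.72), but 5 cells held 76.6% of the *H19* UMIs of smooth muscle-like cells in hyperoxia, the ratio there was -3.74 with each library clustered alone, and in the larger of the 2 smooth muscle-like clusters *H19* was lower in hyperoxia (30.6 and 7.33 CPM). That of *Meg3* was 4.05 higher in artery-like than in AT2-like cells (2.23 and -1.82), but in artery-like cells it was 0.11 with double the doublets removed, 5 cells held 75.2% of the *Meg3* UMIs in hyperoxia, and the summed level of stromal markers differed too (1173 and 3414 CPM).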

How the results depend on the processing

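Of 344 values over 30 results and 20 settings, 279 stayed within the spread set for them, 64 moved and 1 reversed. No paired analysis was possible because each group is 1 library. The reversed value was the log2 ratio of *H19* in smooth muscle-like cells, -3.74 with each library clustered alone. The cause of none of these shifts was tested. The counts of members below stand without the share of all genes under the same setting. They show only how the counts moved. With no doublets removed 1 member was lower in epithelial-like cells. With double the doublets removed 1 was lower in stromal-like and 0 higher in endothelial-like cells, and the median log2 ratios of the members were -0.032 (stromal-like), -0.11 (endothelial-like) and -0.98 (epithelial-like). At resolution 2, 1 member was lower and 2 higher in stromal-like cells, with a median of 0.14, and the medians of fetal growth and cell cycle genes were -0.29 and -0.19. With each library clustered alone, and without mitochondrial, ribosomal and haemoglobin genes, 0 members were higher in endothelial-like cells. TMM factors and median-of-ratios size factors each gave 2 there, the latter with a median of 0.19, and shifted all genes by 0.11 in gCap-like cells. The mean over cells gave 1 higher in stromal-like cells, and without cycling cells the median of the cell cycle genes there was 0.028. In cells with no UMI of 6 stromal genes 0 members were higher in endothelial-like cells (median -0.041) and 5 lower in epithelial-like cells (median -1.08). At a fold of 2, 1 was lower in stromal-like and 0 higher in endothelial-like cells. At a mean of at least 50 CPM 0 were lower in stromal-like cells (median -0.11, fetal growth genes -0.42), 0 lower and 0 higher in endothelial-like cells (median -0.19), and 1 lower in epithelial-like cells (median -1.01). With no filter on CPM the stromal-like median was -0.11, 2 were lower in endothelial-like cells (median -0.18) and 1 higher in epithelial-like cells. With the cell type makeup of room air the stromal-like median was -0.26, 2 were higher in endothelial-like and 1 in epithelial-like cells. The log2 ratio of *Meg3* in artery-like cells ran from 0.11 to 4.44 that of *H19* in pericyte-like cells from -2.42 to -0.35 and that of *H19* in gCap-like cells from -7.07 to -4.08 (no doublets removed). *Peg3* in gCap-like cells kept to 0.98 to 1.24, *Mest* in aCap-like cells to -1.31 to -0.94, and *Meg3* in AT2-like cells to -2.36 to -1.72, and *Plagl1* in myofibroblast-like cells was lower under all 13 alternatives run for it. The settings with at least 5000 UMIs per cell and without the 5 highest cells of each library were chosen after seeing the data. Depth limits low genes most, and 10 UMIs carry the *H19* level of gCap-like cells in hyperoxia.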

Other observations

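Cell types with too few cells for a comparison and clusters without a name also held these transcripts. *H19* was at 284 CPM (54 UMIs) in the 14 lymphatic EC-like cells of room air and at 21.3 CPM (6 UMIs) in the 29 of hyperoxia. *Plagl1* was at 69.2 CPM in 37 vein-like cells of room air and 90.1 CPM in 114 vein-like cells of hyperoxia. In a stromal cluster without a name, led by *Grem1* and *Lrrc15*, *Peg3* was at 530 CPM in 66 cells of room air against 309 CPM in 156 of hyperoxia, and *Plagl1* at 83.5 and 48.6 CPM. A mixed cluster, split from the ECs and led by *Sftpc* and *H19*, was left without a name for leading genes of another lineage. Its median depth was 0.15 of the library median. There *H19* was at 367 CPM (54 UMIs) in room air and 7.66 CPM (2 UMIs) in hyperoxia, and *Peg3* at 204 and 379 CPM (30 and 99 UMIs). Among other imprinted genes *Cdkn1c*, which encodes an inhibitor of the cell cycle, was at 336 and 13.6 CPM over all epithelial-like cells but at 13.1 and 14.1 CPM in AT2-like cells, and club-like cells held a far larger part of the epithelial UMIs in room air than in hyperoxia.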
